A study of Rattus norvegicus with 2 samples.

Results

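Immediate early genes were examined in the mRNA profiles of cultured rat cortical neurons after knockdown of PIWIL1, a PIWI protein best known from the germline. The 10 genes were taken by name (Fos, Fosb, Jun, Junb, Jund, Egr1, Arc, Nr4a1, Ier2 and Dusp1) and matched to the deposited tables by RefSeq accession or by the description column. Of the 10 genes, 7 had a value in at least one library and 6 had a value in both, among 9894 genes in all. The expression of Fos, Fosb and Egr1 is not analysed here. The cells were dissociated from the somatosensory cortex of E16 Sprague-Dawley rats, electroporated either with a control plasmid (Scramble in the study) or with a plasmid expressing an siRNA against PIWIL1, and grown for 48 h in serum-containing Neurobasal medium with B27. Both groups were electroporated and cultured alike, and each is represented by 1 library. Which of the rat siRNAs was sequenced is not given in the sources used here, and the electroporated cells are not described as sorted from the rest of the culture.

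Immediate early genes are transcribed within minutes of a stimulus such as neuronal firing or a growth factor, without the need for newly made protein. Calcium and MAP kinase signals reach factors that already sit at their promoters, among them CREB, which binds the cAMP response element (CRE), and SRF, which binds the CArG box. Many of the products are themselves transcription factors, such as the Fos and Jun proteins, which pair to form AP-1. Others act outside the nucleus or end the signal, such as Arc at the synapse and the phosphatase Dusp1.

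Sequencing was of the digital gene expression kind. A transcript is represented by tags of 21 bases that start at its CATG sites, and the sites are numbered from the 3′ end. The measured quantities are the tag copies of a gene and its TPM, which scales them to all clean tags, so that 1 copy corresponded to 0.295 TPM in the control library and 0.303 TPM in the RNAi library. TPM is not scaled to length, so levels were compared between libraries and not between genes. The tags held 1947600 copies on genes in the control library and 1865913 in the RNAi library, and 3 copies corresponded to 0.886 and 0.908 TPM. No tag was listed with fewer than 2 copies. No value was found for Piwil1 under its symbol, so its knockdown was not checked here. All 7 neuron markers were listed in both libraries, from Stmn2 at 2210 and 1719 TPM and Gap43 at 788 and 1072 TPM down to Rbfox3 at 2.36 and 2.42 TPM and Nefl at 1.77 and 0.61 TPM, and Snap25 was called lower (271 and 165 TPM). Neuron markers summed to 4120 and 3700 TPM, with 4 ratios below 1 and 3 above. All 5 fibroblast or meningeal markers were also listed, with a summed level of 546 and 523 TPM (Col1a1 at 370 and 346 TPM), as were 6 of 7 progenitor markers, with a summed level of 1050 and 1330 TPM (mainly Vim at 790 and 1127 TPM). The other 5 progenitor markers with a value had ratios below 1 and none was called. Markers of astrocytes, oligodendrocytes and microglia summed to between 3.84 and 22.1 TPM per list in either library, those of red blood cells to 36 and 56.3 TPM, and 0 of 4 endothelial markers had a value. The part of these other cells in the values below was not tested. In a bulk library fewer cells of a type and less RNA per cell cannot be told apart.

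The most copied tag of each gene is printed because every value below is a sum of such tags. The capitals mark the CATG site at which the tag starts, and the rest of the tag is in lower case, 5′ to 3′.
Jun, site 6: CATGctaacgcagcagttgca
Jun, site 4: CATGtttgtttgtttgggtgt
Junb, site 4: CATGcaccaccctttgcgggc
Junb, site 2: CATGacccacgtcagcaacgg
Junb, site 1: CATGgcccccttccagcgtat
Jund, site 3: CATGctgaagaaagacgcgct
Jund, site 1: CATGcgcggactagatgcggt
Nr4a1, site 1: CATGtgtacatagctgtcact
Ier2, site 1: CATGggacagacgcgggtgct
Ier2, site 3: CATGcagcgcggtggcttgcg
Arc, site 1: CATGacccatactaatttggc
Dusp1, site 1: CATGtgagctggtccttattt
Jun, Junb, Jund and Ier2 are shown with further tags because their tags differed in direction or size, as described below. The 7 genes had 34 tags at 31 sites, and none of these tags was listed under another gene.

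None of the 7 genes was called lower or higher in the RNAi library. A call needed both an FDR up to 0.05 in Fisher's exact test and an RNAi over control TPM ratio whose log2 was 0.58 or more in size. Of all 9894 genes, 5.97% were called lower and 2.96% higher, or 591 and 293 genes. This split depended on the scaling, with 459 lower and 398 higher under TMM factors and 475 and 382 under DESeq2's size factors. At an unadjusted p under 0.05, 0 of the 7 genes passed, against 26.5% of all genes. When biological variation was assumed (coefficient 0.1, 0.2 or 0.4, edgeR's exact test), 0 of the 7 genes were called, but few genes of any kind were: 170, 2 and 0 of all genes were called lower and 114, 15 and 0 higher. Over the 6 genes with a value in both libraries the median log2 ratio was 0.04, and over all 8899 such genes it was -0.085. The test compares these 2 libraries and not the conditions, since there was 1 library per group and no replicate check. The 95% intervals are exact (Clopper-Pearson) and hold for counting error alone. They may be too narrow even for that, since copies may stem from the same molecule by amplification.

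**Figure D1:**
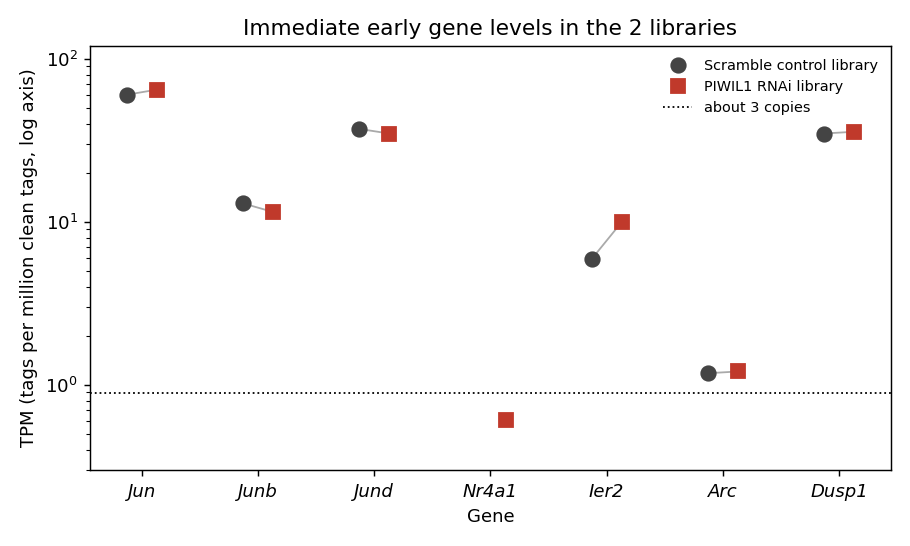
TPM (log axis) of each immediate early gene with a value, in the Scramble control library (circles) and the PIWIL1 RNAi library (squares), 1 library each. The pairs of Jun, Junb, Jund, Arc and Dusp1 lie close together, Ier2 goes from 5.91 to 9.99 TPM, and Nr4a1 is listed in the PIWIL1 RNAi library only, below the dotted line at about 3 copies.

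The Jun family was read at moderate depth and differed little between the libraries. Jun, the founding member of AP-1, had 204 copies in the control library and 214 in the RNAi library, or 60.23 and 64.78 TPM. Its log2 ratio was 0.11 (95% interval -0.18 to 0.39, Fisher's exact FDR 0.644), so both the lower and the higher threshold of 0.58 lay outside the interval. A level of 298 copies or more in the RNAi library would have been called higher, and one of 133 or fewer called lower.

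Jund, which encodes a Jun protein that many cells make without stimulation, had 126 copies in the control library and 115 in the RNAi library, or 37.20 and 34.81 TPM. Its log2 ratio was -0.096 (95% interval -0.47 to 0.28, Fisher's exact FDR 0.905). This interval, too, lay within the thresholds. Junb, whose protein can oppose that of Jun at some promoters, had fewer tags, with 44 and 38 copies, or 12.99 and 11.50 TPM. The log2 ratio of Junb was -0.18 (95% interval -0.84 to 0.48, Fisher's exact FDR 0.854), so the lower threshold lay inside the interval, and 20 copies or fewer would have been called lower. Of the 1741 genes with at least 200 but fewer than 500 copies in both libraries together, the middle 90% of log2 ratios ran from -0.72 to 0.56, and Jun and Jund lay well inside that range. The 3 Jun genes together had 374 copies in the control library and 367 in the RNAi library.

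Ier2, which encodes a small nuclear protein of the immediate early response, showed the largest difference among the 6 genes. It had 20 copies in the control library and 33 in the RNAi library, or 5.91 and 9.99 TPM. This is a ratio of 1.69, or 0.76 on the log2 scale (95% interval -0.086 to 1.64), and Fisher's exact test gave a p of 0.0551 (FDR 0.202). The interval included 0, and 40 copies in the RNAi library would have been needed for a call. Among the 2785 genes with at least 50 but fewer than 200 copies in both libraries together, the middle 90% of log2 ratios ran from -0.99 to 0.66, and Junb lay inside that range and Ier2 above it. Ier2 is at the lower edge of this depth class, and the range over the 2254 genes with at least 10 but fewer than 50 copies, -1.70 to 1.15, would hold it. The 2 tags at its most 3′ site went from 5 to 12 and from 3 to 7 copies, and the tag at site 3 went from 2 to 9. Against these, the tag at site 2 went from 5 to 2 copies, and the tag at site 5 from 3 copies to not listed. Of the 5 Ier2 tags listed in both libraries, 4 were higher and 1 was lower in the RNAi library.

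Nr4a1, an orphan nuclear receptor also called Nur77, was listed only in the RNAi library, with 2 copies (0.61 TPM) of 1 tag. Both libraries were therefore under the limit of 3 copies, and no ratio is given. Its relatives Nr4a2 and Nr4a3 are named here although they fall outside the rule for named genes. Nr4a2 had 12 and 13 copies, a log2 ratio of 0.15 (95% interval -1.10 to 1.41). Nr4a3 had 90 copies in the control library and 58 in the RNAi library, a log2 ratio of -0.60 (95% interval -1.10 to -0.11), but with a Fisher's exact FDR of 0.101 it was not called.

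Of the genes that act outside transcription, Dusp1 was read well and Arc hardly at all. Dusp1, a nuclear phosphatase that switches off MAP kinases, had 118 copies in each library, or 34.84 and 35.72 TPM. Its log2 ratio was 0.04 (95% interval -0.34 to 0.42, Fisher's exact FDR 0.904), and the thresholds lay outside the interval. Arc, which works in the removal of AMPA receptors from the synapse, had 4 copies in each library, or 1.18 and 1.21 TPM. The interval of its log2 ratio ran from -2.39 to 2.46, and 16 copies in the RNAi library would have been needed for a call. No number of copies in that library, not even 0, would have led to a call of Arc as lower.

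**Figure D2:**
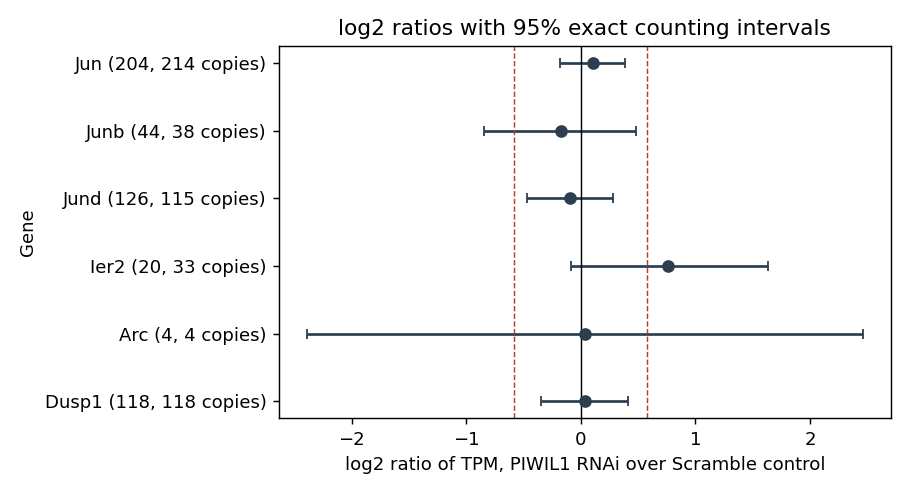
log2 ratio of TPM (PIWIL1 RNAi over Scramble control) for the 6 genes listed in both libraries, with 95% exact counting intervals and the copies in each library in parentheses. The dashed lines mark the thresholds of 0.58 on either side of 0, and the intervals of Jun, Jund and Dusp1 lie between them while those of Junb, Ier2 and Arc cross at least one.

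The tags of one gene did not all move the same way. Each of the 34 tags was tested in the same way against all 53118 tags, and 0 were called, against 2.74% of all tags. At an unadjusted p under 0.05, 3 of the 34 passed, against 11.1% of all tags. Of the 28 tags listed in both libraries, 14 were lower and 14 higher in the RNAi library. In Jund, the tag at the most 3′ site went from 49 to 27 copies (log2 ratio -0.82, 95% interval -1.56 to -0.12, Fisher's exact test over all tags FDR 0.275), while the tag at site 3 went from 48 to 62 copies (log2 ratio 0.41, 95% interval -0.16 to 0.98). In Jun, the tag at site 4 went from 49 to 31 copies (log2 ratio -0.62, 95% interval -1.32 to 0.05), while the tag at site 6 went from 53 to 77 copies (log2 ratio 0.57, 95% interval 0.05 to 1.11, Fisher's exact test over all tags FDR 0.282). In Junb, the tag at site 1 went from 14 to 5 copies (log2 ratio -1.45, 95% interval -3.28 to 0.11) and that at site 2 from 2 to 8 (log2 ratio 2.04, 95% interval -0.29 to 5.31). The near-equal totals of the Jun genes are thus sums of tags that differed in direction. In Dusp1, a single tag at the most 3′ site held 97 of 118 copies in the control library and 98 of 118 in the RNAi library.

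Over all genes the ratio of a tag differed with its last 2 bases, and the tags of the immediate early genes followed their class only in part. The lower tags of Jun at site 4 and Jund at site 1 both end in GT, and the 3 GT tags of these genes with a value in both libraries were lower in the RNAi library. Over the 634 tags of all genes that end in GT and had at least 20 copies, the median log2 ratio was -0.68. In other classes with a median below 0, 1 of 3 tags of these genes ending in GG was lower (class median -0.56). Of those ending in TG 0 of 1 were lower (-0.70), in CT 0 of 4 (-0.25) and in AT 3 of 4 (-0.39). Of those ending in TT 0 of 1 were lower (-0.22), in CG 0 of 1 (-0.08) and in AC 1 of 1 (-0.03). In the classes with a median above 0, 2 of 2 tags ending in TA were lower (0.04) and 3 of 5 ending in GC (0.15). Of those ending in AA 1 of 2 were lower (0.16) and in CA 0 of 1 (0.16). The tag of Jund at site 3, higher in the RNAi library, is one of the CT tags (1339 in all), and that of Jun at site 6 ends in CA, with a median of 0.16 over 1056 tags. After a correction for tag ends, the Jund tag at site 1 had a log2 ratio of -0.24 and the Jun tag at site 4 one of -0.04, while the Jund tag at site 3 moved away from 0, to 0.59, and the Jun tag at site 6 had 0.33. Under the same correction the log2 ratio of Jund as a whole was 0.24 and that of Jun 0.13, and neither was called. The sign for Jund therefore changed with this correction, within its counting interval. No tag of these genes ended in more than 2 A.

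**Figure D3:**
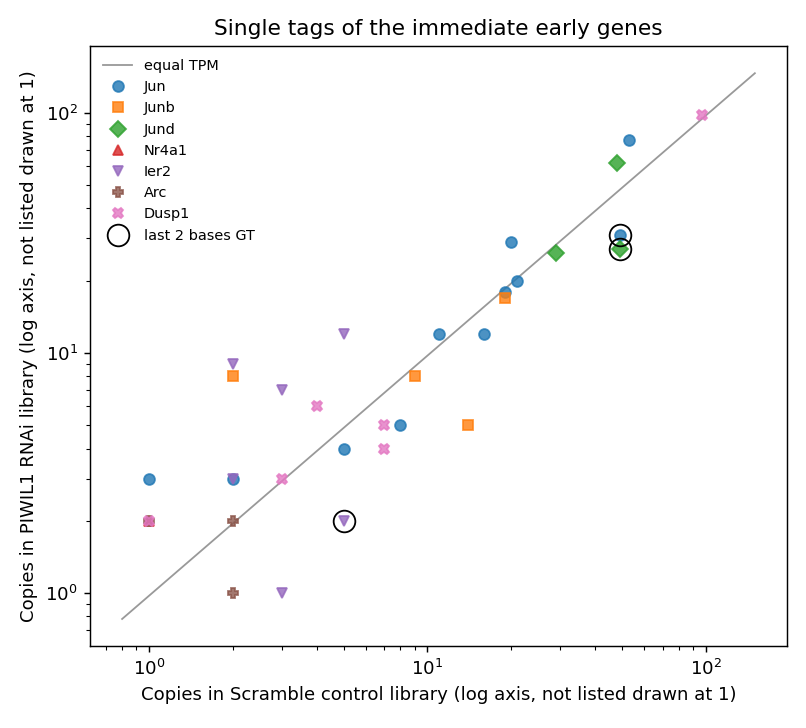
Copies of each of the 34 tags in the Scramble control library (horizontal) and the PIWIL1 RNAi library (vertical), both on log axes, with tags not listed in a library drawn at 1. Symbols mark the genes, the line marks equal TPM, and the 3 circled tags, which end in GT, lie below the line.

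The share of copies at the most 3′ CATG site, where a fully digested transcript should yield its tag, differed among the genes. Over all genes this site held 62.7% of copies in the control library and 64.6% in the RNAi library. In Jun it held 7.84% (95% interval 4.55 to 12.4) and 5.61% (2.93 to 9.59), and most copies lay at sites further 5′. In Dusp1 it held 82.2% (74.1 to 88.6) and 84.7% (77 to 90.7). In Jund it held 38.9% (30.3 to 48) in the control library and 23.5% (16.1 to 32.3) in the RNAi library, and in Junb 31.8% (18.6 to 47.6) and 13.2% (4.41 to 28.1). The paired intervals of Jund and Junb overlapped, but overlap is not a test of a difference. The difference in share between the libraries was not tested. The Jund copies at this site all lay on its GT tag described above, and the part of the tag end in this share was not tested.

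At 3 sites a pair of tags was listed that differ by 1 base, counted from 1 at the C of CATG. At the most 3′ site of Ier2 the pair was CATGggacagacgcgggtgct and CATGggacagacgcgggggct (T18G), with 5 and 3 copies in the control library and 12 and 7 in the RNAi library. The second Ier2 tag was thus a sizeable part of the copies at that site in both libraries. At the most 3′ site of Dusp1 a second tag (T13G) had 2 copies in the RNAi library beside the 98 of the main tag. At site 3 of Jun a second tag (G14A) had 3 copies in the RNAi library beside 4 of the first. These second tags were counted as deposited.

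The promoters of Dusp1, Jund and Ier2 share a full CRE. RefSeq promoters (assembly GRCr8, 250 bases before to 50 after the gene's start) were found for 7 of the 10 genes, namely Fosb, Junb, Jund, Egr1, Nr4a1, Ier2 and Dusp1. The CRE, TGACGTCA, reads the same on both strands and was present in 3 of these 7 promoters, against 1.83% of 33469 promoters. The windows are shown because this is the best-known element of the immediate early response to calcium and cAMP, and its letters are in capitals.
Dusp1, chr10:17184713-17184752, plus strand: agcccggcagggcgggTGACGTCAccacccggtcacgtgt
Ier2, chr19:40399291-40399330, plus strand: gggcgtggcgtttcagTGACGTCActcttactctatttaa
Jund, chr16:18769969-18770008, minus strand: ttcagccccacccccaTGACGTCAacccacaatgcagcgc
The CRE began 124 bases before the gene's start in Dusp1, 66 bases in Ier2 and 221 bases in Jund. The shorter core TGACG, read on either strand and also held by every full CRE, was present in 6 of 7 promoters, against 21.2% of all. The CArG box was present in 1 of 7, that of Egr1, against 1.64% of all. An AP-1 site (TGACTCA or TGAGTCA) was present in 0 of 7, against 4.63% of all. Of the 3 genes with a full CRE, Dusp1 and Jund had log2 ratios of 0.04 and -0.096 and Ier2 one of 0.76, and none was called. Their intervals overlapped, but differences between these genes were not tested. These matches describe the letters of the windows only.

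Over 6 lists of other genes of the pathway, 72 genes had a value, and 3 (4.17%) were called lower and 3 (4.17%) higher, close to the 5.97% and 2.96% of all genes, which also stand as background for each list below. Of 30 other immediate early genes, 23 had a value, and 1 was called lower and 0 higher. Over the 19 with a value in both libraries the median log2 ratio was 0.15, the value of Nr4a2 with its 12 and 13 copies. The log2 ratio of the summed TPM was -0.16. The one called was Mafk, a small Maf protein that pairs with other bZIP factors, which fell from 99 to 55 copies (log2 ratio -0.81, 95% interval -1.31 to -0.32, Fisher's exact FDR 0.0106). Its most copied tag, CATGtcgccgtgactgctttt at the most 3′ site, went from 68 to 37 copies. Btg2 passed the FDR, with 116 and 161 copies, but its ratio was too small for a call. Its log2 ratio was 0.51 (95% interval 0.16 to 0.87, Fisher's exact FDR 0.0196). The most copied genes of the list were not called. Ier5, a nuclear regulator of the stress response, had 184 and 167 copies, Ccn2, a secreted matrix protein, 182 and 133, and Myc, a transcription factor of growth, 169 and 128. Their log2 ratios were -0.10, -0.42 and -0.36.

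Of 17 activity-regulated effectors, 14 had a value, and 0 were called lower and 1 higher. Plk3, a Polo-like kinase of the stress response, rose from 18 to 44 copies (log2 ratio 1.33, 95% interval 0.50 to 2.20, Fisher's exact FDR 0.00534). Its tag at the most 3′ site, CATGctgttcagtgacggcac, went from 11 to 34 copies, and that at site 2 from 5 to 10. Plk2, a related kinase that is induced by synaptic activity, had 170 and 167 copies and a log2 ratio of 0.01. Rheb, the GTPase that activates mTORC1, had 131 and 113 copies, and Nrn1, a neuritin that promotes neurite growth, 81 and 100. Over the 12 effectors with a value in both libraries the median log2 ratio was 0.02.

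Among the factors upstream, 10 of 18 listed transcription factors and coactivators had a value, and 1 was called lower and 0 higher. The one called was Atf1, a relative of CREB that binds the CRE, which fell from 27 to 9 copies (log2 ratio -1.55, 95% interval -2.82 to -0.42, Fisher's exact FDR 0.029). Most of this fall lay in 1 tag that ends in GT, CATGgtgatgacttctcctgt, with 15 and 2 copies. With the tag-end correction the log2 ratio of Atf1 was -1.44 and the call was lost. SRF (Srf), which binds the CArG box, had 194 and 229 copies (log2 ratio 0.28, 95% interval -0.007 to 0.56). Crebbp, the coactivator of CREB, had 240 and 228 copies (log2 ratio -0.04), and Elk4, a ternary complex factor, 210 and 164 (log2 ratio -0.32). The median over the 9 factors with both values was -0.41, and the log2 ratio of the summed TPM -0.09.

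Of 15 kinases, 13 had a value, and 1 was called lower and 1 higher. Camk4, a nuclear kinase that phosphorylates CREB, fell from 97 to 55 copies (log2 ratio -0.78, 95% interval -1.29 to -0.29, Fisher's exact FDR 0.0156). Mapk14, which encodes p38 alpha, rose from 157 to 232 copies (log2 ratio 0.60, 95% interval 0.30 to 0.90, Fisher's exact FDR 0.000346), just past the threshold. With the tag-end correction neither was called, with log2 ratios of -0.48 for Camk4 and 0.41 for Mapk14. Mapk3, which encodes ERK1, had 574 and 664 copies and a log2 ratio of 0.25 (Fisher's exact FDR 0.00892), too small a ratio for a call. Map2k2, a kinase that activates ERK, had 327 and 228 copies and a log2 ratio of -0.48 (Fisher's exact FDR 0.00244), again too small. Rps6ka2 had 132 and 187 copies and a log2 ratio of 0.54 (Fisher's exact FDR 0.00607), too small as well. The median log2 ratio over the 13 kinases was -0.37, the value of Mapk11, which had 4 and 3 copies (95% interval -3.15 to 2.18). The log2 ratio of their summed TPM was 0.06.

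Of the 10 other MAP kinase phosphatases, 8 had a value, and 0 were called lower and 1 higher. Dusp5, a nuclear phosphatase that acts on ERK, rose from 16 to 55 copies, or from 4.72 to 16.65 TPM (log2 ratio 1.82, 95% interval 0.99 to 2.72, Fisher's exact FDR 2.12e-05). Nearly all of its copies lay on 1 tag, CATGtagtacaaaattaaaaa, which went from 16 to 51 copies and ends in 5 A. The median log2 ratio of the 50 tags with that end was 0.40, and with the correction Dusp5 had a log2 ratio of 1.37 and was still called. Dusp6, a cytoplasmic phosphatase of ERK, had 110 and 122 copies (log2 ratio 0.19), and Dusp10, which acts on JNK and p38, 35 and 18 (log2 ratio -0.92, Fisher's exact FDR 0.155). The median over the 7 phosphatases with both values was 0.45, the value of Dusp2, which had 6 and 8 copies (95% interval -1.27 to 2.26). The log2 ratio of the summed TPM was 0.27. Dusp1 and Dusp5 thus differed in these libraries in whether they were called, but the difference between their ratios was not tested. Of 7 regulators of AU-rich mRNA, a class that sets how long many immediate early transcripts last, 4 had a value and 0 were called in either direction, with Elavl1 (HuR) at 294 and 278 copies, Cnot7, a deadenylase, at 283 and 234 and Zfp36l1 at 44 in each library.

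**Figure D4:**
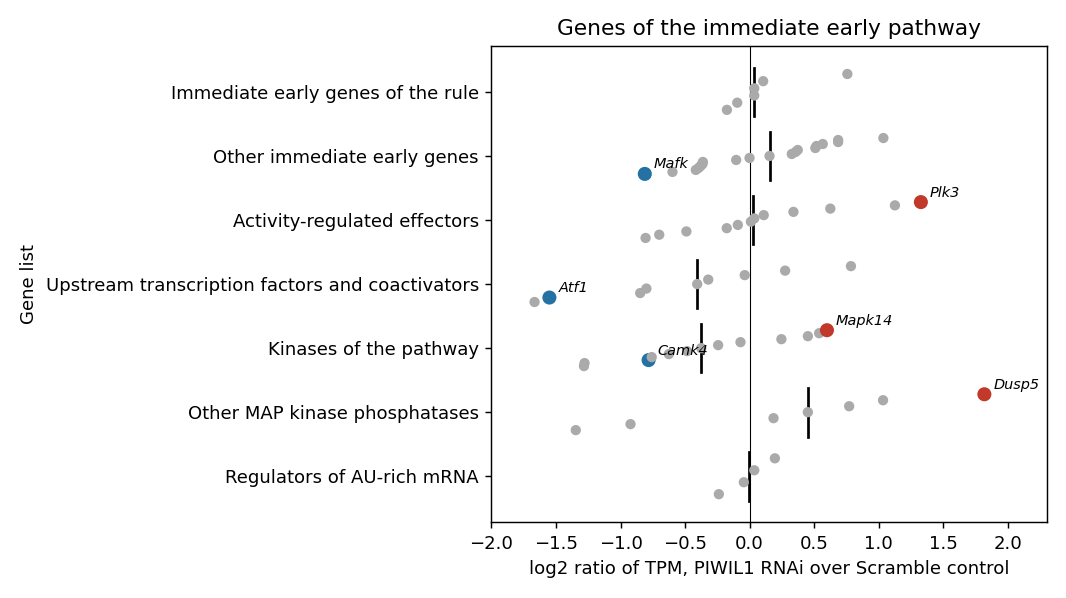
log2 ratio of TPM (PIWIL1 RNAi over Scramble control) of each gene of the pathway lists that was listed in both libraries, with 1 point per gene and the vertical bars at the list medians. Each gene counts alike in a median, also one with few copies. Grey points were not called, and the 6 coloured and named genes were, with Mafk, Atf1 and Camk4 lower and Plk3, Mapk14 and Dusp5 higher.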

How the data were processed

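mRNA of 2 libraries was compared, 1 per group. The authors deposited for every gene its tag count (the sum of its tags' copies, not normalized) and its TPM, scaled by them to all clean tags. The submitters' processing notes name the build rn4; the program that matched tags to genes is not given in the sources used here. Gene symbols came from a RefSeq table (GRCr8) by accession, for 9337 of 9894 genes (94.4%). Coordinates are given only for RefSeq promoter windows, on GRCr8, since the builds differ.

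Genes, and separately tags, were tested on their copies with Fisher's exact test, two-sided, against all other copies on genes, with Benjamini-Hochberg adjustment over all genes or all tags. The test per tag was added after seeing the data. Log2 ratios of genes come from the authors' TPM. Those of tags, and the intervals of all ratios, come from copies scaled to clean-tag totals recovered from the TPM values. The alternatives also took their ratios from copies. Fisher's exact test used the copies on genes as totals, so it and the intervals rest on different totals. For the tag-end correction, the median log2 ratio of tags (at least 20 copies, 0.5 copies added) was taken per class of the last 2 bases, or of the run length for runs of 3 or more A (13 or more as 1 class), on one part of the genes and removed from the other part. The test was checked on simulated libraries that held counting error alone, with changes placed only in genes with many copies. This check does not cover variation between cultures, amplification or genes with few copies. The 10 genes and the lists were chosen with earlier results of these data known. Named are all 10 genes, the called and the 3 most copied genes of each list, and Nr4a2 and Nr4a3. Mapk11 and Dusp2 are named because their ratios are the medians of their lists. Btg2 and Rps6ka2 were added because they passed the FDR but not the ratio. Of the neuron, fibroblast or meningeal and progenitor markers, the most copied are named, and of neurons also Rbfox3, Nefl and the called Snap25. The other called markers were Lhx6 of interneurons, lower, and Hba-a1 of red blood cells, higher. The interneuron and projection neuron lists are not described further. Alternatives were other scalings, error models, filters, tags counted and thresholds.

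Counting tests and figures used SciPy 1.17.1, pandas 2.3.3, NumPy 2.4.6 and Matplotlib 3.10.9 in Python 3.11.15. The alternatives used DESeq2 1.42.0 (size factors) and edgeR 4.0.16 in R 4.3.3, on the deposited counts.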

Additional observations from a re-analysis of the deposited data

How the results depend on the processing

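Under all 15 alternatives 0 of the 7 immediate early genes were called in either direction. Stricter thresholds could not add a call, and the filter of at least 10 copies left Arc and Nr4a1 untested. Leaving out tags ending in 8 or more A, or summing copies per symbol, did not change the copies of these genes. An assumed coefficient of 0.4 called none of all genes. The log2 ratio of Jund changed sign, to 0.24 with copy numbers corrected for the tag end and 0.41 with only the most copied tag counted. The log2 ratio of Ier2 ran from 0.73 to 1.30 and its FDR from 0.149 to 1. When biological variation was assumed (coefficient 0.1, 0.2 or 0.4, edgeR's exact test), 170, 2 and 0 of all genes were called lower and 114, 15 and 0 higher, and 0, 0 and 0 genes of the pathway lists were called lower and 1, 0 and 0 higher. With the tag-end correction 371 of all genes were lower and 184 higher, and 1 pathway gene was lower and 2 higher. At a log2 ratio of 1, 262 of all genes were lower and 146 higher, and 1 pathway gene was lower and 2 higher. At an FDR of 0.001 the counts were 257 lower and 163 higher, and 0 pathway genes were lower and 2 higher. With TMM factors (1.02 and 0.976) and with DESeq2's size factors (1.04 and 0.959), 3 pathway genes each were lower and 5 higher. Of all genes, 459 and 475 were lower and 398 and 382 higher under these scalings. With only the most copied tag 5 pathway genes were lower and 4 higher, against 595 lower and 364 higher of all genes. Mapk14 lost its call under 7 alternatives, Camk4 under 6, Mafk and Atf1 under 5 each, Plk3 under 4 and Dusp5 under 2. For each gene most of these losses came with assumed variation or a stricter threshold. A stricter threshold can only take calls away, and with assumed variation fewer of all genes were called. The causes were not tested. Depth limits Arc and Nr4a1 most. No paired analysis was possible because each group had 1 library.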
